A study of Mus musculus with 4 samples.

Results

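The genes of the glutamate and GABA receptor families were examined for H3K9me3, a histone mark of silenced chromatin, in cultured mouse muscle stem cells that were or were not treated to remove the H3K9 methyltransferase gene Setdb1. Members were chosen by symbol alone: protein-coding genes of chromosomes 1 to 19 named Gria, Grik, Grid or Grm plus a number, Grin plus a number and an optional letter, or Gabr plus a letter and an optional number. The rule gave 41 of 20665 protein-coding autosomal genes. Cells from both conditions carried floxed Setdb1 and a tamoxifen-inducible Cre under Pax7, the gene that marks muscle stem cells. The labels write the genotype as Setdb1lox/lox;Pax7GakaCreERT2 for the control and Setdb1lox/lox;Pax7GakaCreERT3 for the treated culture. That last digit runs on over the 4 samples, inputs included, so whether the cultures differ in the Cre allele cannot be told from it. Control cells received ethanol and the others 4-hydroxytamoxifen, which induces the deletion, with treatment for 72 h. Each condition had 1 H3K9me3 library, so the differences below were not checked against replicates and carry no p-value. Muscle stem cells were isolated by magnetic sorting and cultured, and each condition gave 1 list of broad peaks, called the control list and the deleted list. These lists do not measure whether the cells lost Setdb1. Depth is unknown, and uneven depth cannot be told apart from a difference in the mark.

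Glutamate is the main excitatory transmitter of the brain and GABA the main inhibitory one. AMPA, kainate and NMDA receptors are glutamate-gated cation channels built from 4 subunits, delta receptors are their structural relatives at cerebellar synapses, and metabotropic glutamate receptors signal through G proteins. GABA-A receptors are chloride channels built from 5 subunits, and many of their subunit genes sit side by side in clusters. H3K9me3 in a gene body or around it is a mark of heterochromatin, and these receptor genes are best known from the nervous system rather than from muscle precursors.

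The quantity reported is coverage, the percent of a gene plus 5 kb on both sides that lies under peaks. On 17 autosomes, chromosomes 6 and 14 set apart, there were 36 members. Their median coverage was 1.97% in the control and 2.48% in the deleted library, against 0% and 0% for all 18688 protein-coding genes there. Any control peak lay in the window of 24 members (66.7%), and 30.5% of all genes had one. In the deleted list these numbers were 24 members (66.7%) and 31.6%. Coverage of at least 10% was reached by 9 members (25%) in the control and 11 (30.6%) in the deleted library, against 8.87% and 9.5% of all genes. The high values came from few places. In the control list 7 of the 9 belonged to GABA-A clusters of chromosomes 5 and 7, and the other two were Gria4 and Grm3. The muscle genes Pax7, Myf5, Myod1, Myog, Des, Vcam1, Itga7, Cdh15, Megf10 and Msc were free of peaks in both lists (0 of 10 with one). These muscle genes are short, with a median length of 13.7 kb against 107 kb for the 36 members. All genes under 20 kb had a median and an upper quartile of 0% in both lists, so length was not matched in this contrast.

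**Figure D1:**
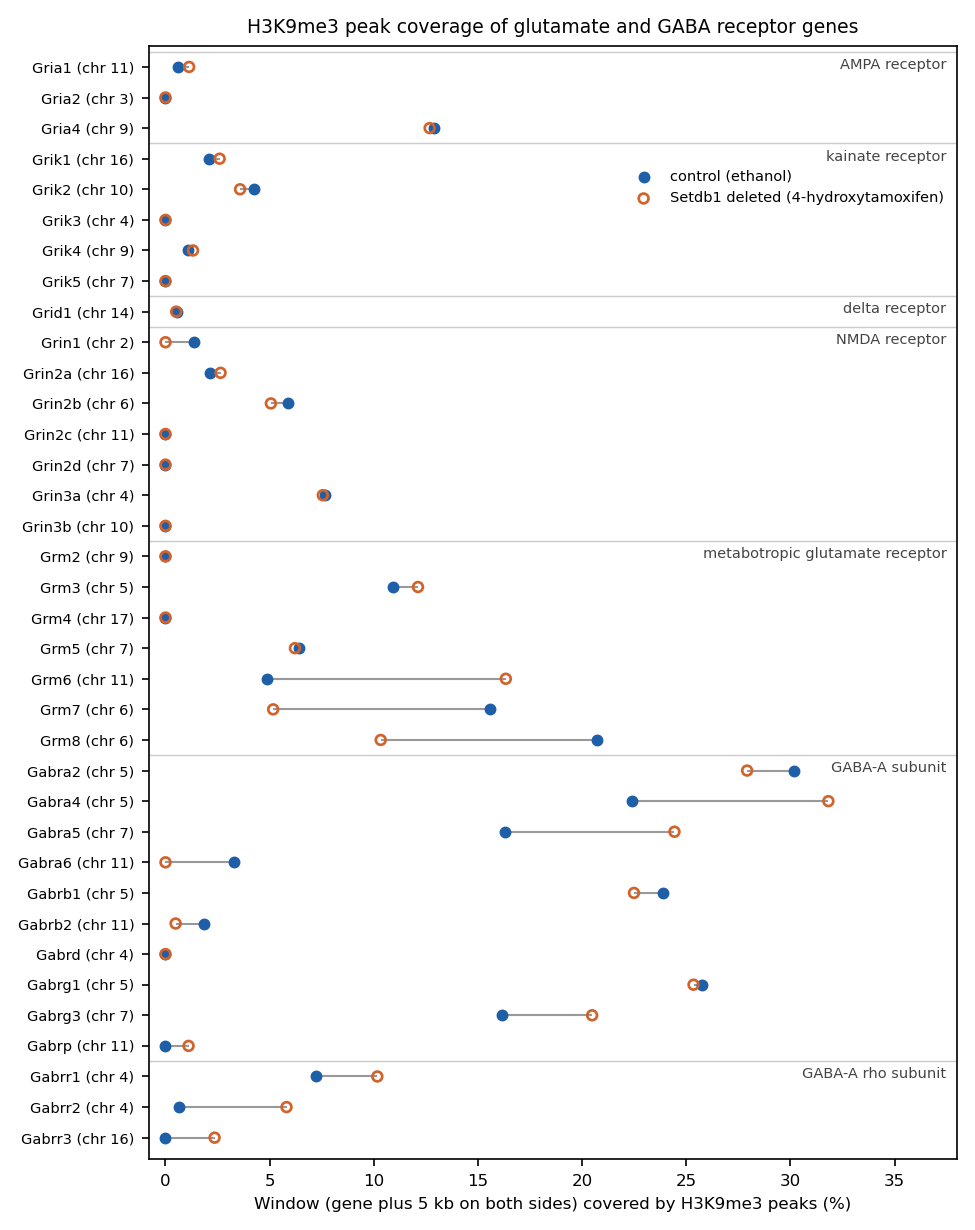
Percent of each gene window (gene plus 5 kb on both sides) under H3K9me3 peaks for 36 of the 41 receptor genes, grouped by receptor class, with filled points for the control library and open points for the Setdb1-deleted library (1 each). Gabra2 at 30.2% is the highest control value and Gabra4 at 31.8% the highest in the deleted list, while 9 of the genes shown stand at 0% in both.

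Peaks lay nearer to the median promoter of the receptor genes than to that of all genes. The RefSeq promoter table (GRCm38.p6, the assembly of mm10) held 33 windows for 27 members, each 300 bases from 250 before to 50 after a gene start. The median distance to the closest peak was 10.0 kb for control peaks and 7.65 kb for those of the deleted list, against 44.3 and 39.8 kb for all windows. A peak within 5 kb was found for 11 windows (33.3%) with control peaks and 14 (42.4%) with those of the deleted list. Of all windows 13.1% and 13.8% had one. Chromosome 6 was not set apart here. Windows of Grm7 and a window of Grm8, on that chromosome, had such a peak only in the deleted list, as did Gabra2 and Gabrr3. Gabra5 and Gabra6 had one only in the control list. With control peaks these windows belonged to Gabra4, Gabra5, Gabrb1, Gabrg1 and Gabrg3 of the chromosome 5 and 7 clusters. The rest were of Gabra6, Gabrr1, Gria4, Grik2 and Grm8. Of the 33 windows 0 overlapped a peak in either list, which is near the 1.92% and 1.91% of the 20085 windows of all protein-coding genes and says nothing particular about the members. Windows of 1 gene, and of Gabra4 and Gabrb1, which start back to back, share their neighbourhood.

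The promoters of 5 genes are shown for the range they span, from inside the covered GABA-A clusters to Grm2, which had no peak in its window. Each is the 250 bases before a start that is also the outer end of the annotated gene, 5′ to 3′, with CG dinucleotides, the main sites of DNA methylation, in capitals.
Gabrg1, chr5:70842618-70842867, minus strand: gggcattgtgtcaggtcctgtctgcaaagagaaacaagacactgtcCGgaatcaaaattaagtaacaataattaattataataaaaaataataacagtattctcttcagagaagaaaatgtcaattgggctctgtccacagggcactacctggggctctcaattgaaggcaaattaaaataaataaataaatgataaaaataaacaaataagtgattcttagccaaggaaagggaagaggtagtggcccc
Gabra2, chr5:71095850-71096099, minus strand: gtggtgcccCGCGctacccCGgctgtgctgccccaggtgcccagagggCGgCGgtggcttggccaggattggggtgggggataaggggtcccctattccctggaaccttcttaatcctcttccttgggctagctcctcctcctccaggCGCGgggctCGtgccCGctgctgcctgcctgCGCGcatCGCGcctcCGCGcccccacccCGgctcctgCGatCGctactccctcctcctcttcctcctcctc
Gabrg3, chr7:57387216-57387465, minus strand: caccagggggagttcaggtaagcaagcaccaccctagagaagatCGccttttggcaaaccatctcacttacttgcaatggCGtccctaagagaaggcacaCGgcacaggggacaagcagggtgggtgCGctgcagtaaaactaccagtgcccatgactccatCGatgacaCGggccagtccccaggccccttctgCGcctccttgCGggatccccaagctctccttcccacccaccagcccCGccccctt
Grin1, chr2:25319188-25319437, minus strand: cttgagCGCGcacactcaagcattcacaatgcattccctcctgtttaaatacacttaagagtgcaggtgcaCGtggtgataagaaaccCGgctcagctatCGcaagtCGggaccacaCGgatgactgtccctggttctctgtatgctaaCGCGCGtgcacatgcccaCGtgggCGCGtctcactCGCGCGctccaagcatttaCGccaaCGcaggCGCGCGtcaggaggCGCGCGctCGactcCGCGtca
Grm2, chr9:106656110-106656359, minus strand: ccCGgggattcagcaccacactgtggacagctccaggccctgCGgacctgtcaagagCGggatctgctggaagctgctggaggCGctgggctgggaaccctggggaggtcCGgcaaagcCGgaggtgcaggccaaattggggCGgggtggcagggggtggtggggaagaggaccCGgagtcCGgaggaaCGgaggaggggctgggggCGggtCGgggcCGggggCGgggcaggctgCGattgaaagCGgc

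Gabrg1 had 1 CG and Gabra2 had 18 in these 250 bases, although both lay in the same heavily covered cluster. For Gabrg1 the closest peak was 1.28 kb from the promoter window among control peaks and 1.79 kb among deleted-list peaks. For Gabra2 it was 6.09 and 2.69 kb away. Gabrg3, with 9 CG, had the closest deleted-list peak of all windows, at 0.895 kb, and its closest control peak was 1.29 kb away. Grin1, with 27 CG, lay 19.6 kb from a control peak and 200.3 kb from one of the deleted list. Grm2, with 16 CG, lay 36.2 and 35.0 kb from the closest peak. The closest control peak of any window was that of Gabra5, at 0.282 kb. Near and far windows were found at low and at high CG content. Of the 21 windows with fewer than 10 CG upstream, 7 had a control peak within 5 kb, and of the 12 with 10 or more, 4 had one. The following motifs were sought on both strands of the 300 bases, and the right arm of RE1 was sought in a shorter and a longer form, of which the second holds the first. The left arm of the RE1 element bound by the neuronal repressor REST, TTCAGCACC, was in 1 member window (3.03%, Grm2) and 0.413% of all windows. Its right arm, GGACAGCGC, was in 1 member window (3.03%, Gria2) and 0.563% of all, and with the C that follows in the element it was in 0 member windows and 0.194% of all. The TATA box, TATAAA, was in 2 member windows (6.06%, Gabrb2 and Grin3b) and 12.7% of all.

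**Figure D2:**
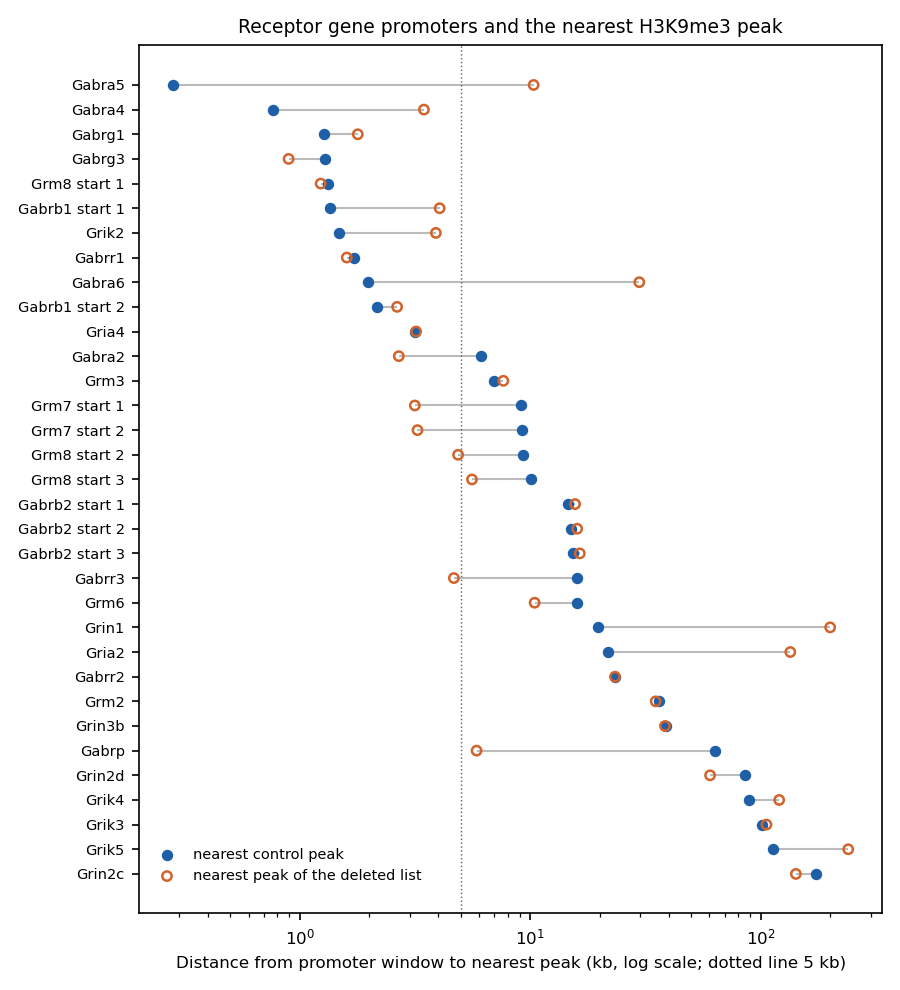
Distance in kb (log axis) from each of 33 promoter windows of 27 receptor genes to the nearest control peak (filled) and nearest peak of the deleted list (open), with starts of 1 gene numbered along the chromosome. The dotted line marks 5 kb, and Gabra5, Gabra4, Gabrg1 and Gabrg3 of the clusters of chromosomes 5 and 7 have the shortest control distances (0.282 to 1.29 kb).

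Of the autosomal AMPA receptor genes 1, Gria4, was covered at more than 10%. Gria2, whose subunit sets the calcium permeability of AMPA receptors, had no peak in 133 kb in either list. Gria1 was covered at 0.603% in the control and 1.13% in the deleted library. Gria4 was covered at 12.9% and 12.7%, by 48 and 45 peaks. The near equal totals of Gria4 lay at partly different positions. Control peaks held 50122 bases and deleted-list peaks 49248, and 13243 bases were common to both, 26.4% and 26.9% of each. Over all genes of 100 kb or more on the 17 autosomes these shares were 37.2% and 33.7%.

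Kainate receptor genes carried little. Grik3 and Grik5 had no peak in either list. Grik2, the most covered of the 5, stood at 4.25% and 3.58%. Grik1 was at 2.08% and 2.60%, and Grik4 at 1.09% and 1.32%, though Grik4 is 427 kb long and had a stretch of 252 kb without a peak in the control list. The peak of highest fold in Grik4 lay at the same place in both lists and passed −log10 q of 2. Its control peak of highest fold, by the authors' value, was at chr9:42813296-42815897 (fold 3.17, −log10 q 2.82), and that of the deleted list was at chr9:42812976-42814956 (fold 3.09, −log10 q 2.47).

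Most of the coverage of NMDA receptor genes was in the long ones. Grin2c, Grin2d and Grin3b, all under 40 kb, had no peak. Grin1, which encodes the obligatory subunit, had a single control peak covering 1.39% of its window and none in the deleted list. Grin3a, 184 kb long, was at 7.66% and 7.55%. Of its control bases 38.2% were also covered in the deleted list, against 37.2% over all genes of 100 kb or more. Grin2a, 428 kb long, was at 2.12% and 2.64%. Grin2b, 460 kb long and on chromosome 6, was at 5.88% and 5.06%.

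Metabotropic glutamate receptor genes outside chromosome 6 included 1 large difference. Grm2 and Grm4 had no peak. Grm3 was covered at 10.9% and 12.1%, with 22 control peaks and 41 in the deleted list. Grm5 was at 6.40% and 6.22%. In Grm5 6214 bases were covered in both lists, 17.3% of its 35912 control bases and 17.8% of its 34873 deleted-list bases. The similar totals thus lay mostly at different places. Most covered bases of all genes of 100 kb or more on the 17 autosomes also differed in place (37.2% and 33.7% shared). Grm6, the receptor through which retinal ON bipolar cells sense glutamate, was covered at 4.87% in the control and 16.3% in the deleted library.

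The Grm6 difference lay at the end of the gene away from its promoter, beside a zinc finger gene. Its 1 control peak was at chr11:50866776-50868033 in the flank, with the authors' fold 2.60 and −log10 q 1.60. In the deleted list a peak of 3057 bp at chr11:50865316-50868372 (fold 3.0, −log10 q 2.12) took in that place and reached across the gene end. A further peak of 4235 bp at chr11:50870422-50874656 (fold 2.70, −log10 q 1.53) ran into Zfp454, and a small one of 378 bp lay inside Grm6. Within the gene itself coverage was 0% and 8.02%. Neighbouring zinc finger genes, a class often marked by H3K9me3, were also covered more in the deleted list: Zfp454 at 22.8% and 35.0%, Zfp354c at 15.1% and 24.8%, and Zfp879 at 3.42% and 8.74%. Their part in the Grm6 value was not tested. At −log10 q of 2 or more Grm6 stood at 0% and 11.8%.

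GABA-A subunit genes ran from 0%, a value also found in the AMPA, kainate, NMDA and metabotropic classes, to the highest coverage of all members. Many GABA-A genes lie in clusters of alpha, beta and gamma subunit genes, the usual partners in 1 receptor. On chromosome 5 the cluster from Gabrg1 to Gabrb1 (chr5:70751047-72149572, 1399 kb) was covered at 27.5% in the control and 25.5% in the deleted library. The stretch from Gabrg3 to Gabra5 on chromosome 7 (chr7:56716463-57591016, 875 kb) was covered at 16.4% and 21.7%. On chromosome 11 the stretch from Gabra6 to Gabrb2 (chr11:42306437-42632591, 326 kb) was covered at 2.67% and 1.01%. The order of these 3 stretches was the same in both lists.

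**Figure D3:**
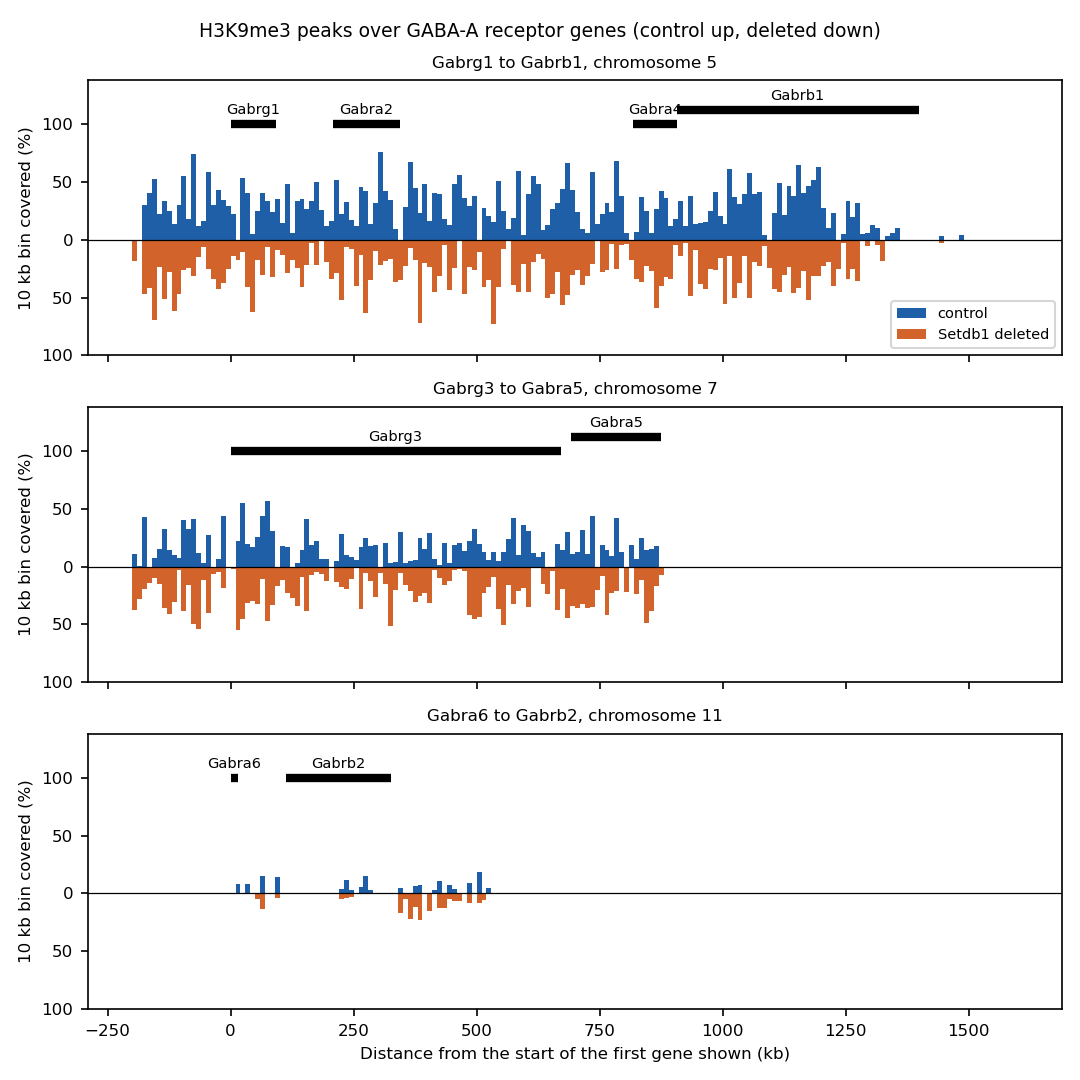
Percent of each 10 kb bin under H3K9me3 peaks in the control library (bars up) and the Setdb1-deleted library (bars down) over 3 stretches of GABA-A receptor genes, against distance in kb from the start of the first gene, with black bars for genes and 200 kb of flank on both sides (chromosome 5), on the left (chromosome 7) or on the right (chromosome 11). The chromosome 5 cluster (27.5% and 25.5%) thins out toward the far end of Gabrb1, the chromosome 7 stretch (16.4% and 21.7%) has peaks along its whole length with gaps between them, and the chromosome 11 stretch (2.67% and 1.01%) is mostly empty.

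Coverage of the chromosome 5 cluster continued to the left and stopped near the far end of Gabrb1. The 500 kb to the left of Gabrg1 were covered at 32.2% and 31.9%, and the 500 kb to the right of Gabrb1 at 0.332% and 0.982%. Bases between the 4 receptor genes were covered at 30.2% and 26.3%, and bases inside them at 25.6% and 24.9%. Along Gabrb1, cut into 5 equal segments from its start, control coverage was 24.4%, 33.2%, 44.5%, 15.3% and 4.23%, and that of the deleted list 26.7%, 27.7%, 36%, 21.6% and 2.35%. The last segment was the lowest in both lists. Of the neighbours on the right, Commd8, Nfxl1, Zar1 and Nipal1 were at 0% in both lists, Cnga1 was at 0% and 3.49%, and Corin, which encodes a protease of the heart, was at 0.417% and 0.713%.

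In this cluster 1 of the 4 genes differed by 5 points or more between the lists. Gabra2 was covered at 30.2% and 27.9%, Gabrg1 at 25.8% and 25.3%, and Gabrb1 at 23.9% and 22.5%. Gabra4 was covered at 22.4% in the control and 31.8% in the deleted library. Its 21 peaks in each list held 22078 and 31371 bases, with 9704 in common. Cox7b2, a mitochondrial protein gene between Gabra2 and Gabra4, went the other way, at 31.2% and 22%. The windows of Gabra4 and Gabrb1 overlap by 10.4 kb and share peaks. At −log10 q of 2 or more Gabra4 stood at 0% and 0.405%, Gabra2 at 1.11% and 2.02%, Gabrg1 at 6.80% and 0.688%, and Gabrb1 at 3.09% and 1.27%, so most of the coverage of these genes came from peaks below that threshold.

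Gabra5 and Gabrg3 on chromosome 7, which lie near an imprinted domain, were covered more in the deleted list. Gabra5 stood at 16.3% and 24.4%, and Gabrg3 at 16.1% and 20.5%. The sequence to their left was also covered more there: the 500 kb beside Gabrg3 were covered at 14.3% and 19.3%, and Oca2, a pigmentation gene, at 12.9% and 18.2%. Chromosome 7 as a whole had a deleted-to-control ratio of covered length of 1.23, and 1.05 was the ratio of the 17 autosomes together. Divided by the ratio of the chromosome, the difference was 3.52 points for Gabra5 and 0.486 points for Gabrg3. At −log10 q of 2 or more the direction turned, with Gabra5 at 3.96% and 0.447% and Gabrg3 at 2.85% and 1.40%.

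Few peaks lay between Gabra6 and Gabrb2 on chromosome 11. Gabrb2, 213 kb long, was covered at 1.86% and 0.487%, and Gabra6 at 3.31% by 1 control peak and 0%. Genes of a like length thus had very different coverage, with Gabra5 at 183 kb against Gabrb2 at 213 kb. Of the GABA-A genes outside clusters, Gabrd, for a subunit of receptors outside synapses, had no peak, and Gabrp had 1 peak, in the deleted list, covering 1.11%.

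The windows of the 3 rho genes, whose subunits form GABA receptors of the retina, were covered more in the deleted list. Gabrr1 stood at 7.22% and 10.2%, Gabrr2 at 0.635% and 5.81%, and Gabrr3 at 0% and 2.36%. Of all 18688 genes on the 17 autosomes 3776 were covered more and 3154 less. Chromosome 4, with Gabrr1 and Gabrr2, had a deleted-to-control ratio of covered length of 1.16, and chromosome 16, with Gabrr3, had 0.999. Divided by the ratio of the chromosome, the Gabrr2 difference was 4.36 points. Beside the chromosome 4 pair, the 500 kb to the left were at 1.22% and 1.74%, and those to the right at 1.32% and 2.67%. Within the gene itself, without the flanks, Gabrr1 went the other way, at 7.10% and 5.41%. In Gabrr2 a control peak of 306 bp at chr4:33086508-33086813 (fold 2.50) lay wholly within a deleted-list peak of 1612 bp at chr4:33086502-33088113 (fold 2.82), and a second peak of 1186 bp at chr4:33090141-33091326 (fold 2.92) had no control partner. No Gabrr2 peak reached −log10 q of 2, and Gabrr2 was at 0% in both lists at that threshold. Peaks of the other two did reach it: the one of highest fold near Gabrr1 was in the flank in both lists, at chr4:33129819-33130580 (fold 3.34, −log10 q 3.07) and chr4:33129493-33130705 (fold 2.91, −log10 q 2.50), and that in Gabrr3 was at chr16:59417974-59418640 in the deleted list (fold 3.27, −log10 q 2.85).

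Counted over the 17 autosomes, 5 of 36 members were covered at least 5 percentage points more in the deleted list and 0 at least 5 points less. Over all genes 5.2% were higher by that much and 4.06% lower. Among them were Grm6, Gabra4, Gabra5 and Gabrr2, at 11.5, 9.43, 8.13 and 5.18 points, and the nearest outside was Gabrg3, at 4.35 points. Neighbours in a cluster share peaks and are not separate observations. On chromosome 7 11.6% of all genes were higher by 5 points or more, and on chromosome 5 3.07%. Among their genes of 100 kb or more these shares were 7.38% and 3.5%. The median difference over the 36 members was 0 points, as over all genes, with 15 members higher, 11 lower and 10 equal. Of all 18688 genes 3776 were higher, 3154 lower and 11758 equal. Divided by the ratio of each chromosome, 3 members remained past 5 points. At −log10 q of 2 or more 1 was higher (Grm6) and 1 lower (Gabrg1, by 6.11 points). The shares of all genes were not computed with that scaling or at that q threshold.

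Longer receptor genes tended to be covered more, with exceptions such as Gria2 and Grik3 at 0%. Spearman's rho between gene length and coverage over the 36 members was 0.49 for control and 0.47 for deleted-list coverage, while over all 18688 genes it was 0.11 and 0.10, and over the 2080 genes of 100 kb or more 0.30 and 0.30. These correlations are across genes of the same 2 libraries and carry no p-value. The 6 members under 20 kb had a median of 0% in both lists. The 12 of 20 to 100 kb had medians of 0.318% and 1.39%, against 0% and 0% for all genes of that length. The 8 of 100 to 300 kb had 9.30% and 9.84%, against 0.483% and 0.531%. The 10 over 300 kb had 4.73% and 4.16%, against 1.40% and 1.49%. Coverage of at least 10% in the control list was found in 4 of the 8 members of 100 to 300 kb, and 4.33% of all genes of that length had it. It was found in 3 of the 10 over 300 kb, and 14% of all such genes had it. Of those 4 and 3 genes, all but Grm3 and Gria4 belonged to the GABA-A clusters of chromosomes 5 and 7. Without the 7 genes of those clusters the median over members was 0.660% in the control and 1.13% in the deleted library.

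**Figure D4:**
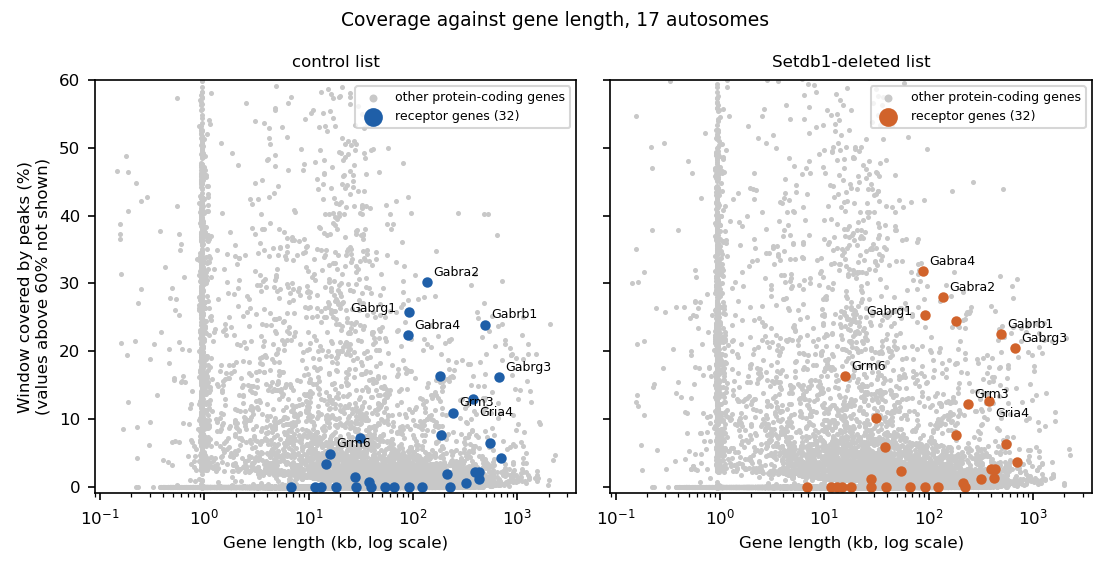
Window coverage in percent against gene length in kb (log axis) for protein-coding genes of 17 autosomes, with 32 of the 36 receptor genes in colour, in the control list (left) and the Setdb1-deleted list (right). Long receptor genes run from 0% to above 20%, and the highest belong to the GABA-A clusters of chromosomes 5 and 7.

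On chromosome 6, where control peaks covered 15.3 Mb and deleted-list peaks 7.73 Mb, all 4 members were covered less in the deleted list. So were 34 of all 39 chromosome 6 genes over 300 kb, the length class of the 4 members, with 5 covered more. Grm8, a presynaptic receptor gene 860 kb long, was at 20.7% and 10.3%, and Grm7, of the same receptor group and 922 kb long, at 15.6% and 5.17%. Grin2b was described with the NMDA receptor genes. Grm7 and Grm8 were the 2 of 4 past 5 points, and 13.3% of all chromosome 6 genes were lower by that much (1.15% higher). Length was not matched in these shares, with a median of 18.0 kb for all those genes and 891 kb for the 4 members.

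These genes were set beside the chromosome as a whole, whose deleted-to-control ratio of covered length was 0.504. The ratios of covered bases were 0.498 for Grm8, 0.332 for Grm7 and 0.861 for Grin2b. Among the 60 chromosome 6 genes with at least 10 kb of control peaks the median was 0.484, with quartiles of 0.335 and 0.574. Of those over 300 kb long there were 19, and their ratios ran from 0.148 to 0.861. Grin2b had the highest ratio of the 19, Grm8 stood 7 from the top, and Grm7 stood 7 from the bottom. Grin2b had 26 peaks in both lists, and 17.7% of its control bases were covered in the deleted list. Grm7 was covered most in its first and last segments in both lists: from its start, its 5 equal segments were covered at 23.0%, 9.98%, 6.93%, 8.54% and 28.1% among control peaks and at 7.4%, 3.22%, 1.2%, 2.81% and 11% among deleted-list peaks. By bases, 10.5% of the control coverage and 31.7% of the deleted-list coverage of Grm7 was common to both lists. For Grin2b these shares were 17.7% and 20.6%, and over all chromosome 6 genes they were 23.7% and 49.7%. Divided by the ratio of the chromosome, Grm8 differed by -0.25 points and Grm7 by -5.31, and Grin2b turned to 4.15 points higher in the deleted list.

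**Figure D5:**
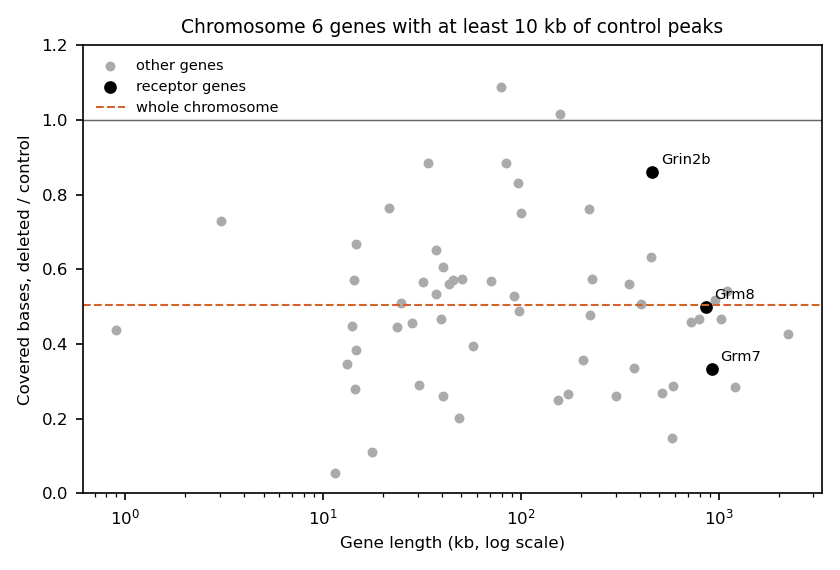
Ratio of covered bases (deleted over control) against gene length in kb (log axis) for 59 of the 60 genes of chromosome 6 with at least 10 kb of control peaks, with 3 receptor genes in black and a dashed line at 0.504, the ratio of the whole chromosome. Grm8 sits on the line, Grm7 below it and Grin2b above it.

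Grid1, a delta receptor gene, lies on chromosome 14, which was sparsely covered in both lists. It was covered at 0.559% and 0.514% of 773 kb, by 7 and 6 peaks that had no base in common. Partners were rare on this chromosome: 17.3% of all its control peaks and 20.8% of its deleted-list peaks overlapped a peak of the other list. No chromosome 14 member passed 5 points, and 0.47% of all genes there were higher and 0.94% lower by that much.

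Peaks in receptor windows had medians of width and fold near those of all peaks, and a smaller share of them reached −log10 q of 2. On the 17 autosomes there were 515 control peaks and 579 deleted-list peaks, with median widths of 814 and 858 bp, against 903 and 870 bp for all peaks. The median of the authors' fold was 2.52 and 2.57 within each list, against 2.57 and 2.59, and the highest was 3.34 and 3.61, against 10.1 and 7.87. A −log10 q of 2 or more was reached by 68 (13.2%) and 40 (6.91%), against 18.7% and 11.9% of all peaks. Of the control peaks 48.7% (95% Wilson interval 44.4 to 53.0%) overlapped a deleted-list peak by at least 1 bp, against 54.5% of all, and of the deleted-list peaks 44.9% (40.9 to 49.0%) overlapped a control peak, against 50.6%. These intervals cover counting error only and take neighbouring peaks as independent. By bases, 34.3% of the control coverage and 30.3% of the deleted-list coverage of the 36 members was common to both lists, against 37.2% and 33.7% for all genes of 100 kb or more.

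Other genes of glutamate and GABA signalling had lower median coverage. The list of 53 genes covered transporters, synthetic enzymes, GABA-B receptors, auxiliary subunits, scaffolds and glycine receptors, and 52 lie on the autosomes. On the 17 autosomes 46 of them, of median length 70.8 kb, had median coverage of 0.561% and 0.672%. The 36 members, of median length 107 kb, had 1.97% and 2.48%. Without the GABA-A clusters of chromosomes 5 and 7 the members had 0.660% and 1.13%. Of the 46, 0 were at least 5 points higher in the deleted list and 1 was at least 5 points lower, against the 5.2% and 4.06% of all genes. That one was Neto1, an auxiliary subunit of kainate receptors, at 27.6% and 17.2%. Next in coverage were Nlgn1, a postsynaptic adhesion gene, at 10.5% and 10.1%, and Shisa6, whose product binds AMPA receptors, at 7.16% and 11.4%. At least 10% was reached by 2 of the 46 in the control and 3 in the deleted library.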

How the data were processed

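H3K9me3 was profiled by native chromatin immunoprecipitation after micrococcal nuclease, with 8 µg of chromatin per immunoprecipitation per the labels' protocols. Per the submitters' processing notes the tools were BWA 0.7.17-r1188, MACS2 and ChIPseeker 1.30.3, with build mm10. How peaks were called, whether the inputs (2 libraries, not analysed here) served as background, and whether libraries were pooled are not given in the sources used here. The deposited broad peaks carry the authors' fold enrichment (a linear ratio), −log10 p, −log10 q and a score. Peak names give another replicate number than the sample labels, so lists were assigned by condition. Fold and q were read within a list. Thresholds on them also set which peaks of each list entered some alternative comparisons of coverage. The threshold of −log10 q of 2 kept 19644 control and 12690 deleted-list peaks.

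Overlapping peaks were merged and covered bases counted with Python 3.11.15, numpy 2.4.6 and pandas 2.3.3 in gene windows from RefSeq GRCm38.p6, the assembly behind mm10. The counting was tested on simulated data. Figures used matplotlib 3.10.9, and correlations and intervals scipy 1.17.1. Autosomal peaks numbered 103258 for the control and 108595 for the deleted library. Total counts are unknown.

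Genes given in full were those differing by 5 points or more, the 10 of highest coverage, the members of chromosomes 6 and 14 and the extremes of each class. The other members were described after their values were seen. Members, lists and rules were chosen with earlier results of these data known. Members absent from the promoter table included Gabrd, Gria1, Grid1, Grik1, Grin2a, Grin2b, Grin3a, Grm4 and Grm5. Of the 41 members 5 count in the summaries, and their own values are not reported here. Alternatives covered peak thresholds, list size, joining, windows, the 5-point rule and chromosome scaling.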

Additional observations from a re-analysis of the deposited data

How the results depend on the processing

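With 1 library per condition, leaving out a replicate was not possible. No paired analysis was possible because each condition had 1 library. Of 82 alternative values for the summaries over members, 56 were within 1.5 times of the reported one, and of 42 for the 6 named genes past 5 points, 40 kept their sign, 33 of them past 5 points. The settings without the GABA-A clusters of chromosomes 5 and 7 and with scaling of each member by its chromosome were chosen after seeing the data. A stricter threshold leaves fewer peaks (19644 and 12690 autosomal peaks at −log10 q of 2 or more) and joining makes longer ones. For the other changes the cause was not tested. Unknown depth limits every comparison.

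At −log10 q of 2 or more Gabra5 turned to -3.51 points. There the median coverage of members was 0% and 0.0679%, 1 member was higher and 1 lower by 5 points, 0 of 4 were lower on chromosome 6, the chromosome 6 ratio was 0.218, and shared bases were 9.10% of control and 15.5% of deleted-list bases. With only the peaks whose fold reached their list's median, medians were 0.860% and 1.3%, 2 members were lower, and shared bases were 19% and 14.4%. With peaks joined within 5 kb, 8 were higher, 2 lower, and 53.2% of control bases were shared. In the gene body alone 1 was lower, namely Gabra6 by the single control peak. With a threshold of 2 points 8 were higher and 2 lower, and with 10 points 2 were higher. Scaled by chromosome, 3 were higher, 1 of the 4 on chromosome 6 was lower, and the chromosome 6 ratio was 0.873. Without the clusters of chromosomes 5 and 7, medians were 0.660% and 1.13%, and 2 were higher. At the settings other than this last one, the shares of all genes were not computed, so the counts of members have no background there.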

Other observations

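The members on chromosome X, outside the rule used above, carried almost nothing in either list. Gabra3 was covered at 0.520% in the control and 0.462% in the deleted library, and Gria3 at 0.100% and 0%. Gabre and Gabrq had no peak. Over all 966 protein-coding genes of X, 187 were covered more in the deleted list and 40 less, with medians of 0% in both lists. Gabra3 and Gria3 are longer than 100 kb, and of the 114 such genes of X 65 were covered more and 7 less.

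Another family of ligand-gated channels was read after the receptor values were seen. The 5 genes of the muscle nicotinic acetylcholine receptor, the channel of the neuromuscular junction (Chrna1, Chrnb1, Chrnd, Chrne and Chrng), had no peak in either list. Of 11 neuronal nicotinic subunit genes, 2 had a control peak and 5 a peak of the deleted list. Of all genes on the 17 autosomes 30.5% and 31.6% had one. The highest coverage of the neuronal genes was that of Chrna6, at 2.18% and 3.15%. Median length was 9.47 kb for the muscle nicotinic genes and 20.8 kb for the neuronal ones. Both are shorter than the 107 kb of the glutamate and GABA receptor genes on the 17 autosomes.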
